A study of Mus musculus with 9 samples.

Results

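The tripartite motif (TRIM) gene family of the mouse was followed through bulk RNA-seq of intestinal organoids, to separate members that differed with 4-hydroxytamoxifen (4-OHT) from members that were low, silent or did not pass the test. Members were all genes whose symbol is Trim followed by a number and at most 1 letter from a to e, which gave 68 of the 54838 genes in the expression tables. Of these 68, 38 reached 1 FPKM (fragments per kilobase of transcript, scaled to the mapped fragments of the library) in at least 2 of the 7 libraries and were tested, among 12702 tested genes in all, and 30 were not. The organoids carried floxed alleles of *Mettl3*, which encodes the RNA N6-adenosine methyltransferase, and Vil-CreERT2, a Cre recombinase driven by villin regulatory sequence and switched on by 4-OHT, so that recombination was limited to villin-expressing epithelium. The labels give C57BL/6 as the strain background. Cultures received ethanol vehicle (EtOH) or 500 nM 4-OHT for 2 days. They also received DMSO vehicle or necrostatin-1 (Nec-1), an inhibitor of the kinase RIPK1, for 5 days. The groups were EtOH DMSO with 2 libraries, EtOH Nec-1 with 2, 4-OHT DMSO with 2 and 4-OHT Nec-1 with 1, all of the same Vil-CreERT2 Mettl3 fl/fl genotype. No group with 4-OHT and without Cre was analysed here, so an effect of 4-OHT or of Cre activity and an effect of *Mettl3* deletion cannot be told apart.

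Most TRIM proteins have a RING domain, which in many of them acts as an E3 ubiquitin ligase, followed by B-box domains and a coiled coil. Members differ mainly in the domain at the C-terminal end. Many members that end in a PRY-SPRY domain act in antiviral defence, either on the virus itself or on signalling below sensors of foreign nucleic acid, and the genes of a number of them are induced by interferon. A small nuclear group that ends in a PHD finger and a bromodomain works on chromatin, and in it TRIM28 is the corepressor through which KRAB zinc finger proteins silence retroelements.

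*Mettl3* (ENSMUSG00000022160), the targeted gene, had 2.70 and 2.71 FPKM in the EtOH DMSO libraries, 2.41 and 2.47 with EtOH Nec-1, 3.72 and 4.14 with 4-OHT DMSO and 3.36 with 4-OHT Nec-1. It was therefore not lower in the libraries labelled 4-OHT, and all 3 of them lay above all 4 EtOH libraries. The difference between 4-OHT DMSO and EtOH DMSO was 0.41 on the scale of log2(FPKM + 1) (SE 0.10), with an adjusted p of 0.0231 from limma, a linear model with a variance pooled across genes, after Benjamini-Hochberg adjustment over all tested genes. The *Mettl3* call was lost in 8 of 16 alternatives, over which the fold change ranged from 0.25 to 0.52 and the adjusted p from 0.0180 to 0.0914. With the libraries' medians made equal the difference was 0.25 (adjusted p 0.0796), and the adjusted p was 0.0640 with upper quartile scaling and 0.0579 in a fit of the 4 DMSO libraries alone. It was 0.0914 without 4-OHT DMSO replicate 2, 0.0686 and 0.0640 without EtOH DMSO replicate 1 or 2, and 0.0587 and 0.0589 without EtOH Nec-1 replicate 1 or 2. A value over the whole gene also counts exons outside the floxed part, so it does not show whether that part was lost. Nothing in the labels says that libraries of a group came from separate cultures, so the p-values measure only the spread between these samples, which may be technical. The tables hold FPKM and no counts, so depth is unknown. FPKM summed over all genes was between 450207 and 498712 per library, and 11559 to 12038 genes reached 1 FPKM.

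Summed over the 68 members, FPKM was 198 and 220 with EtOH DMSO, 185 and 205 with EtOH Nec-1, 342 and 361 with 4-OHT DMSO and 260 with 4-OHT Nec-1. The 4-OHT DMSO libraries had the largest sums and the 4-OHT Nec-1 library lay between them and the 4 EtOH libraries. In bulk RNA, a change in the share of cells that express a gene, such as fewer cells of a type, and less RNA per cell cannot be told apart. *Trim25* alone held 2.12% and 3.05% of the sum in EtOH DMSO and 15.6% and 16.1% in 4-OHT DMSO. At an adjusted p under 0.05, 18 of the 38 tested members were higher in 4-OHT DMSO than in EtOH DMSO, beside 24.5% of all tested genes. Another 3 of 38 were lower, beside 16.7% of all tested genes. The 17 other tested members did not pass the threshold. Of the 18 higher members, 11 rose by at least 1 log2 unit, as did 854 of all 12702 tested genes. None of the 3 lower members fell by that much, against 465 of the 12702. *Trim5*, *Trim6*, *Trim12a*, *Trim30a*, *Trim30d* and *Trim34b* were under 1 FPKM in all 4 EtOH libraries, and *Trim34a* reached it in 1 of them, so these 7 passed the expression filter only through libraries labelled 4-OHT. They were tested because they were high there, and the counts over tested members lean towards rises for that reason. Among the 31 tested members that reached 1 FPKM in at least 2 EtOH libraries, 11 were higher and 3 lower, beside 22.8% and 17.8% of all such genes.

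**Figure D1:**
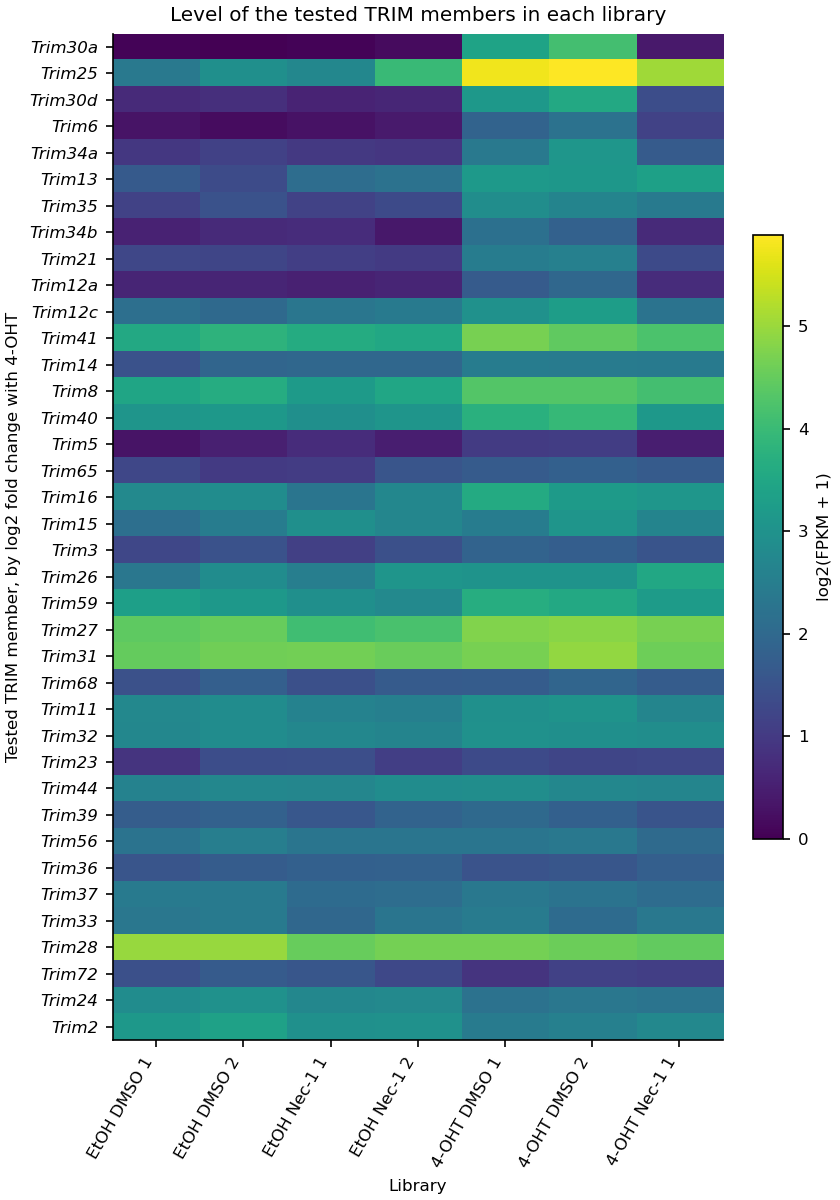
Heat map of log2(FPKM + 1) for the 38 tested TRIM members (vertical, ordered by log2 fold change with 4-OHT) in the 7 libraries (horizontal, ordered by group), with colour giving the level. *Trim25* was the highest member in the 4-OHT DMSO libraries, at 53.4 and 58.2 FPKM, and *Trim30a* went from near 0 in the EtOH libraries to 9.72 and 16.5 FPKM there.

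Scaling bore on how many members passed in each direction. The median log2 fold change was 0.45 over the 38 tested members and 0.08 over all tested genes. Setting each library's median to the same value moved the median of all genes by 0.16, to -0.08, and that of the members to 0.30, and 15 members were then higher and 4 lower, beside 17.4% and 25.1% of all tested genes. *Trim5*, *Trim27* and *Trim59* were the higher members lost in that setting, and *Trim72* was the lower member gained. Leaving out 1 library gave 13 to 18 higher members and 2 or 3 lower ones. Without 4-OHT DMSO replicate 1 or 2, *Trim5*, *Trim12a*, *Trim30a* and *Trim34b* no longer reached the expression filter, and 14 or 13 members were higher, beside 21.3% or 20.6% of all tested genes. Members were grouped by C-terminal class, and those with a COS domain formed a class of their own, whether or not they also hold a SPRY domain. In the SPRY class 14 of 22 tested members were higher and none lower, beside 24.5% and 16.7% of all tested genes. With the libraries' medians made equal 12 were higher and 1 lower. All 7 members that passed the filter only through libraries labelled 4-OHT are in this class. Of its other 15 tested members 7 were higher and none lower. Among all genes that reached 1 FPKM in at least 2 EtOH libraries, 22.8% were higher and 17.8% lower. None of 3 tested members with a PHD finger and bromodomain was higher and 2 were lower, and these counts held under both other scalings. Of the tested NHL members 1 of 3 was lower. Both transmembrane members were higher, and 1 of 2 under the other scalings. Among tested members with no further domain 2 of 5 were higher. The single tested members with a COS, a MATH and an ARF domain did not pass.

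**Figure D2:**
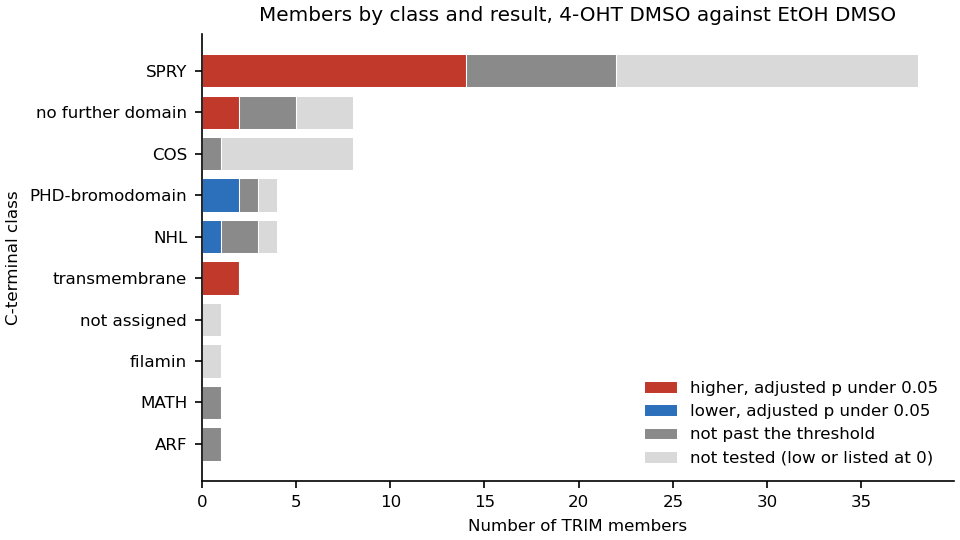
Stacked bars of the number of TRIM members (horizontal) in each C-terminal class (vertical), with colour giving the call between 4-OHT DMSO and EtOH DMSO at a limma adjusted p of 0.05. Of 38 SPRY members 14 were higher, 12 with the libraries' medians made equal, and both members lower in the class with a PHD finger and bromodomain lie beside 1 tested member that did not pass.

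Of the 18 higher members, 8 lay in 1 cluster on chromosome 7. From chr7:104218795-104507853, the cluster holds 10 members in the order *Trim6*, *Trim34a*, *Trim5*, *Trim12a*, *Trim34b*, *Trim12c*, *Trim30b*, *Trim30c*, *Trim30a* and *Trim30d*. The 8 that were tested were all higher, beside 24.5% of all tested genes. However, 7 of them passed the filter only through libraries labelled 4-OHT, and *Trim12c* alone would have been tested without those. *Trim30b* and *Trim30c* were not tested. These genes include close paralogs that share sequence, so reads may be split between *Trim30a*, *Trim30b*, *Trim30c* and *Trim30d*, between *Trim12a*, *Trim12c* and *Trim5*, and between *Trim34a* and *Trim34b*, and the level of any 1 of them is uncertain. The sources used here do not state whether counting used the strand, so values of members that overlap another gene are uncertain as well.

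Promoters were read from RefSeq on build GRCm38.p6, from 250 bases before to 50 bases after each start, and were searched on both strands for GAAANNGAA (reverse TTCNNTTTC), the core of the interferon-stimulated response element, and for TTCNNNGAA, the site read by STAT factors. An entry was matched for 53 of the 68 members, too few for a comparison of shares over the whole family. For the higher members 15 of 18 were matched, and 9 of these 15 held GAAANNGAA, namely *Trim5*, *Trim12a*, *Trim12c*, *Trim21*, *Trim25*, *Trim30a*, *Trim30d*, *Trim34a* and *Trim34b*. The same letters were in 8.56% of all 32851 promoters, and in those of 9.33% of all genes higher with 4-OHT and 8.40% of all tested genes. Of the 9 holders, *Trim5*, *Trim12a*, *Trim30a*, *Trim30d*, *Trim34a* and *Trim34b* were tested only because of libraries labelled 4-OHT. Without such members 3 of 8 held the letters, *Trim12c*, *Trim21* and *Trim25*, beside 8.20% of all higher genes chosen the same way. None of the 15 held TTCNNNGAA, which was in 8.30% of all promoters and in those of 8.56% of all genes higher with 4-OHT. It was in 0 of 3 lower members, in 2 of 11 matched members that did not pass, *Trim15* and *Trim31*, and in 4 of 24 that were not tested. A member was counted as a holder if any of its promoter entries held the letters, so members with more entries had more chances of a match. Among the lower members, 1 of 3 held GAAANNGAA, in 1 of several entries of *Trim2*. So did 1 of 11 matched members that did not pass, the interferon-linked *Trim26* with 2 matches. So did 1 of 24 that were not tested, *Trim7*, in 1 of its entries. A match is a description of the letters, not a site or a cause. The 250 bases before the start are shown for *Trim30a*, *Trim25* and *Trim13*, the 3 largest rises at separate loci, and for *Trim28*, the most abundant member that fell. Capitals mark the GAAANNGAA match on either strand, which *Trim13* and *Trim28* lack. Positions are chr7:104465194-104465443 on the minus strand for *Trim30a*, chr11:88999153-88999402 on the plus strand for *Trim25*, chr14:61597976-61598225 on the plus strand for *Trim13* and chr7:13023902-13024151 on the plus strand for *Trim28*.
Trim30a: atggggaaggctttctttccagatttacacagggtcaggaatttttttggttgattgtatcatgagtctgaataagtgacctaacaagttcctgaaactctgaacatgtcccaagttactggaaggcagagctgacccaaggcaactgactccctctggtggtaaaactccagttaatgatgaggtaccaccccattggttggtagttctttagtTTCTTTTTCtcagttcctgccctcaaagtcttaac
Trim25: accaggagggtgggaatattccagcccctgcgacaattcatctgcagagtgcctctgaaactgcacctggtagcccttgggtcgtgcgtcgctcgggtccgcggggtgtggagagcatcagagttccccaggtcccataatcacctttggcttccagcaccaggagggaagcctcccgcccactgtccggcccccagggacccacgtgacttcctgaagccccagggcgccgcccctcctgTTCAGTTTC
Trim13: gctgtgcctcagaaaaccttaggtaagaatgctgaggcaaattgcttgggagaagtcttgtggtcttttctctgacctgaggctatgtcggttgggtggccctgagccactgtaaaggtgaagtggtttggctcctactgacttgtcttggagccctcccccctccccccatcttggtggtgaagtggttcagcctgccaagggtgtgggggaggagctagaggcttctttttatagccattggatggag
Trim28: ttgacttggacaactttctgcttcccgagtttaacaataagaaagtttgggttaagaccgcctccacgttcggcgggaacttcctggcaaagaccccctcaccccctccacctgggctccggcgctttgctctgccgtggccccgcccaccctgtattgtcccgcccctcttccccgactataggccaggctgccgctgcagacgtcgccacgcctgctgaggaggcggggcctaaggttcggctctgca

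Shorter stretches of 29 bases around single matches show what the cluster members share, again with the match in capitals and each written along its gene. The stretch of *Trim30d* was the same as that of *Trim30a* listed here, letter for letter, and the stretch of *Trim5* was the same as that of *Trim12a*. *Trim21* lies on chromosome 7 outside the cluster, and its promoter held 2 overlapping matches, of which the first is shown. A second promoter entry of *Trim30a* held a match in a stretch that differed from the one listed and is not shown.
Trim30a: gttctttagtTTCTTTTTCtcagttcctg
Trim30d: gttctttagtTTCTTTTTCtcagttcctg
Trim5: gagttgtggtTTCTGTTTCatttccagag
Trim12a: gagttgtggtTTCTGTTTCatttccagag
Trim12c: gagttgtggtTTCTGTTTCatttccagct
Trim34a: ggtttggagtTTCAGTTTCttttctctgc
Trim34b: tccttctgccTTCTCTTTCctgtgccacc
Trim21: cctctgagagGAAACTGAAagtgaaattt
Trim25: gcccctcctgTTCAGTTTCgattccttcc

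Among members known from antiviral signalling, *Trim30a* (ENSMUSG00000030921, chr7:104409025-104465193) encodes an interferon-inducible TRIM protein of rodents that restrains signalling to NF-kappaB. Its level was 0.0488 and 0.0148 FPKM with EtOH DMSO, 0.0430 and 0.127 with EtOH Nec-1, 9.72 and 16.5 with 4-OHT DMSO and 0.325 with 4-OHT Nec-1. The gene was close to 0 in all 4 EtOH libraries and high in both 4-OHT DMSO libraries, and the 4-OHT Nec-1 library lay far nearer to EtOH than to 4-OHT DMSO. On log2(FPKM + 1) it rose by 3.73 with 4-OHT (95% interval 3.13 to 4.34, limma adjusted p 0.000573), the largest rise among the tested members. The added 1 holds down fold changes of genes this low, and with 0.1 in its place the same difference was 6.61. Its neighbour *Trim30d* (ENSMUSG00000057596) had 0.628 and 0.740 FPKM with EtOH DMSO, 0.490 and 0.540 with EtOH Nec-1, 7.77 and 10.7 with 4-OHT DMSO and 1.61 with 4-OHT Nec-1. *Trim30d* followed the same order, with both 4-OHT DMSO libraries on top and the 4-OHT Nec-1 library above all 4 EtOH libraries. It rose by 2.59 (95% interval 2.18 to 2.99, limma adjusted p 0.000522). Of the other 2 paralogs, *Trim30b* stayed at or under 0.0931 FPKM in every library, and *Trim30c* was listed at 0 in all 7.

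*Trim25* (ENSMUSG00000000275, chr11:88999403-89020294) encodes a ubiquitin ligase that acts with the RNA sensor RIG-I. It had 4.20 and 6.69 FPKM with EtOH DMSO, 5.63 and 14.8 with EtOH Nec-1, 53.4 and 58.2 with 4-OHT DMSO and 32.1 with 4-OHT Nec-1, and it was the most abundant member in both 4-OHT DMSO libraries. The 3 libraries labelled 4-OHT lay above the 4 EtOH libraries without overlap, and EtOH Nec-1 replicate 2 was the highest of those 4. *Trim25* rose by 3.17 with 4-OHT (95% interval 2.11 to 4.22, limma adjusted p 0.00375). The predicted gene *Gm11496* overlaps the start of *Trim25*, and its own FPKM was 0.471 and 0.586 with EtOH DMSO, 0.669 and 0.270 with EtOH Nec-1, 5.80 and 8.61 with 4-OHT DMSO and 3.79 with 4-OHT Nec-1. It was thus high in the same 3 libraries as *Trim25*, and reads shared between them were not tested. In the pathway in which TRIM25 acts, 11 of 12 listed genes were higher with 4-OHT, beside 24.5% of all tested genes, and *Mavs* was the gene that did not pass. With the libraries' medians made equal 8 of 12 were higher, beside 17.4%. *Ddx58*, *Ifih1*, *Dhx58* and *Irf7* are also on the list of interferon-stimulated genes described below, so the results of these lists are not separate. Of the 12 genes, 1 passed the filter only through libraries labelled 4-OHT, and 10 of the other 11 were higher. *Ddx58*, which encodes RIG-I, had 1.52 and 1.71 FPKM with EtOH DMSO, 1.70 and 1.98 with EtOH Nec-1, 8.73 and 9.62 with 4-OHT DMSO and 3.49 with 4-OHT Nec-1. The order of the groups was that of *Trim25*, with 4-OHT Nec-1 between 4-OHT DMSO and the EtOH libraries.

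*Trim21* (ENSMUSG00000030966, chr7:102557920-102565482) encodes a cytosolic antibody receptor that marks antibody-coated particles for degradation. Its FPKM was 1.40 and 1.35 with EtOH DMSO, 1.13 and 1.01 with EtOH Nec-1, 4.55 and 4.93 with 4-OHT DMSO and 1.49 with 4-OHT Nec-1. Both 4-OHT DMSO libraries stood apart from the other 5, and the 4-OHT Nec-1 library was only just above the highest EtOH library. *Trim21* rose by 1.27 with 4-OHT (95% interval 1.01 to 1.54, limma adjusted p 0.00107). *Trim21* and *Trim25* passed in all 16 alternatives. *Trim30a* passed in the 13 in which it could be tested. It did not reach the filter when either 4-OHT DMSO library was left out or when 1 FPKM was required in every library.

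**Figure D3:**
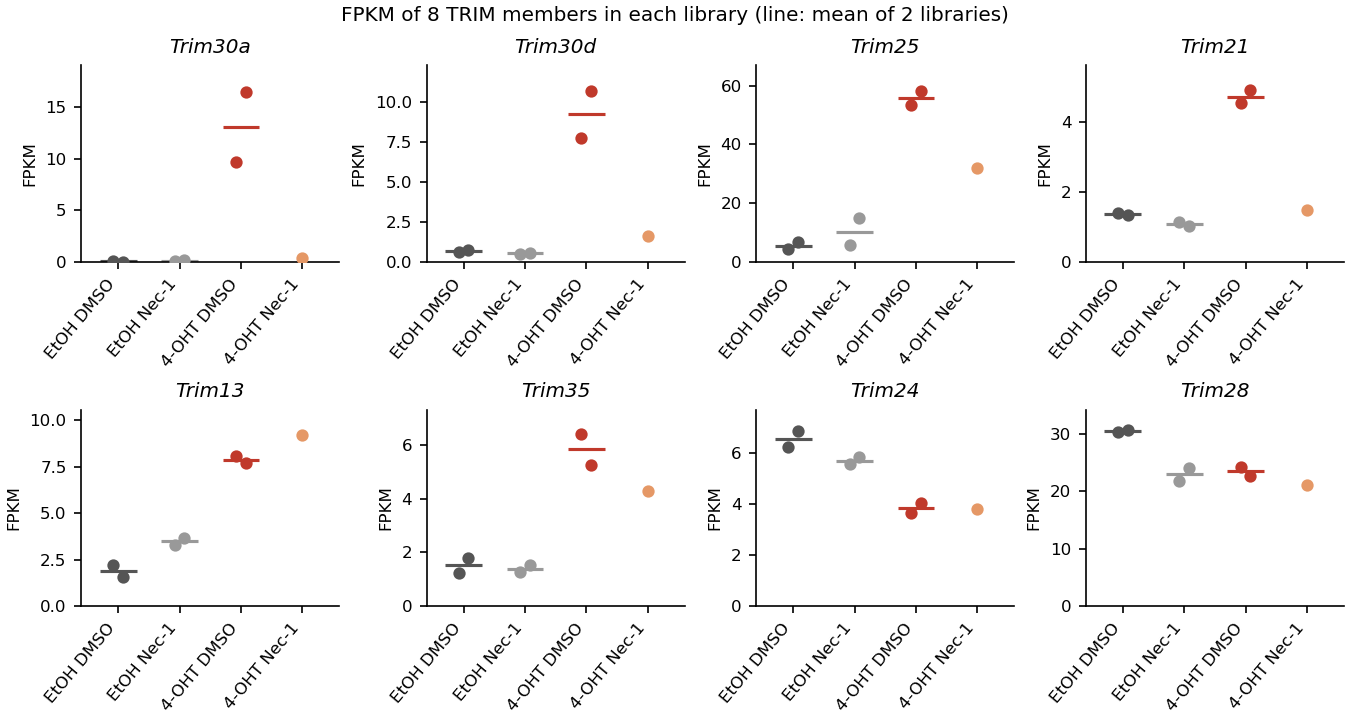
FPKM of *Trim30a*, *Trim30d*, *Trim25*, *Trim21*, *Trim13*, *Trim35*, *Trim24* and *Trim28* in each library, with 1 point per library by group, a line at the mean of 2 libraries and 1 panel per gene. The 4-OHT Nec-1 library, at 0.325 FPKM for *Trim30a* and 9.24 FPKM for *Trim13*, falls near EtOH for the first and above 4-OHT DMSO for the second.

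The rest of the chromosome 7 cluster comprises relatives of *Trim5*, known from primates as a restriction factor of retroviruses, and *Trim6*, which encodes a ligase that builds free ubiquitin chains in interferon signalling. *Trim6* (ENSMUSG00000072244) had 0.241 and 0.139 FPKM with EtOH DMSO, 0.217 and 0.336 with EtOH Nec-1, 2.65 and 3.63 with 4-OHT DMSO and 1.22 with 4-OHT Nec-1. It was under 1 FPKM in the EtOH libraries and above it in all 3 libraries labelled 4-OHT, and rose by 1.79 (limma adjusted p 0.00135). *Trim34a* (ENSMUSG00000056144) had 0.930 and 1.20 FPKM with EtOH DMSO, 0.983 and 0.920 with EtOH Nec-1, 4.23 and 7.49 with 4-OHT DMSO and 2.25 with 4-OHT Nec-1. The 4-OHT DMSO libraries differed more between themselves than the 4 EtOH libraries did, and both were above those 4, with a rise of 1.69 (limma adjusted p 0.00451). *Trim34b* (ENSMUSG00000090215) had 0.475 and 0.639 FPKM with EtOH DMSO, 0.691 and 0.295 with EtOH Nec-1, 3.52 and 2.53 with 4-OHT DMSO and 0.614 with 4-OHT Nec-1. Its 4-OHT Nec-1 value lay inside the range of the EtOH libraries, and it rose by 1.36 with 4-OHT (limma adjusted p 0.00502). *Trim12a* (ENSMUSG00000066258), a rodent relative of *Trim5*, had 0.517 and 0.530 FPKM with EtOH DMSO, 0.444 and 0.517 with EtOH Nec-1, 2.21 and 2.89 with 4-OHT DMSO and 0.686 with 4-OHT Nec-1. Both 4-OHT DMSO libraries were above the other 5, and the rise was 1.21 (limma adjusted p 0.00261). *Trim12c* rose by 1.05 (limma adjusted p 0.00300) with every 4-OHT DMSO value above every EtOH DMSO value. *Trim5* rose by 0.63 (limma adjusted p 0.0255), and over 13 alternatives its adjusted p ran from 0.0150 to 0.107. The call of *Trim5* was lost in 4 of these, among them without EtOH DMSO replicate 1 (0.107), without EtOH DMSO replicate 2 (0.0544) and with the libraries' medians made equal (0.0530).

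Outside the cluster, and after *Trim25*, the next largest rise was that of *Trim13* (ENSMUSG00000035235, chr14:61598226-61610287), which encodes a ligase anchored in the membrane of the endoplasmic reticulum. It had 2.18 and 1.54 FPKM with EtOH DMSO, 3.30 and 3.67 with EtOH Nec-1, 8.07 and 7.70 with 4-OHT DMSO and 9.24 with 4-OHT Nec-1. All 3 libraries labelled 4-OHT were above all 4 EtOH libraries, the EtOH Nec-1 libraries were above EtOH DMSO, and the 4-OHT Nec-1 library was the highest of the 7. *Trim13* rose by 1.64 with 4-OHT (SE 0.14, limma adjusted p 0.00105). Its overlapping neighbour *Dleu2* had 0.278 and 0.271 FPKM with EtOH DMSO, 0.221 and 1.27 with EtOH Nec-1, 0.312 and 0.424 with 4-OHT DMSO and 0.280 with 4-OHT Nec-1. *Trim35* (ENSMUSG00000022043), a SPRY member, had 1.25 and 1.80 FPKM with EtOH DMSO, 1.25 and 1.51 with EtOH Nec-1, 6.41 and 5.28 with 4-OHT DMSO and 4.30 with 4-OHT Nec-1. As for *Trim13*, the 3 libraries labelled 4-OHT did not overlap with the 4 others, and the rise was 1.44 (limma adjusted p 0.00217).

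**Figure D4:**
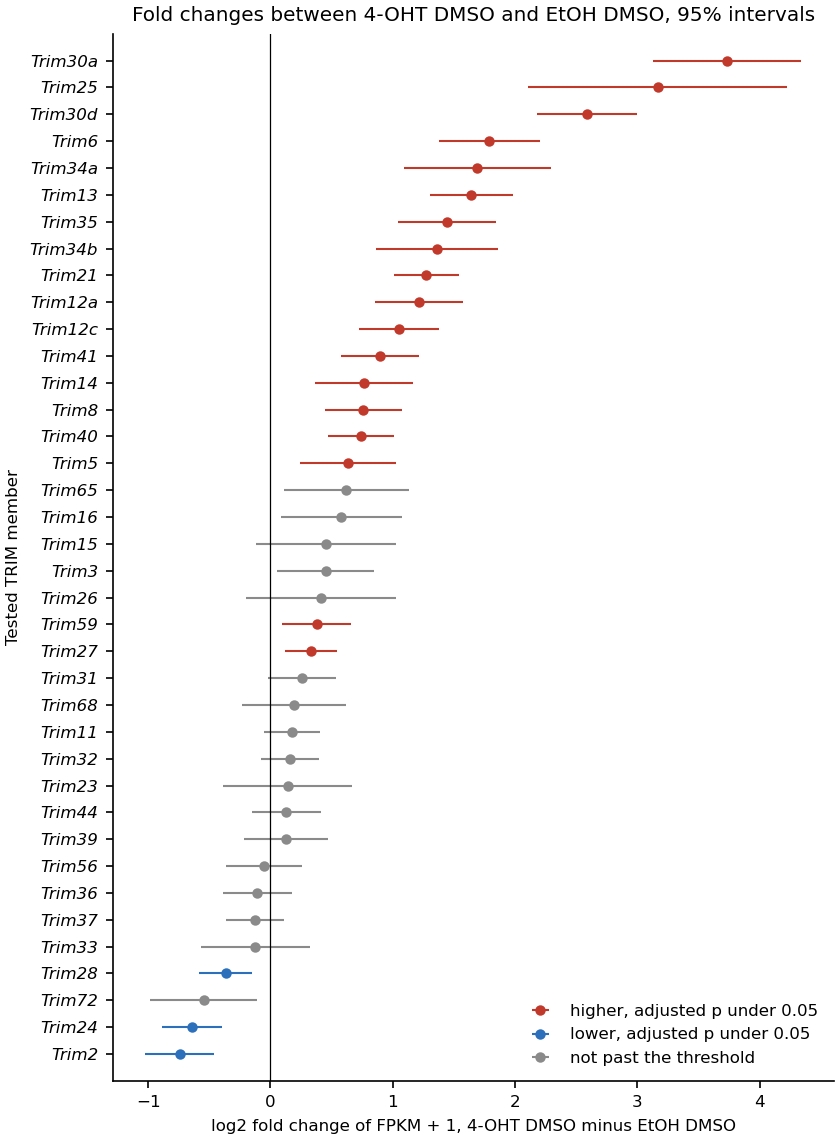
Log2 fold change between 4-OHT DMSO and EtOH DMSO for each tested TRIM member, in units of log2(FPKM + 1), with points for the limma estimate and bars for its 95% interval. Estimates run from 3.73 for *Trim30a* to -0.74 for *Trim2*, and with the libraries' medians made equal *Trim23*, *Trim39* and *Trim44* change sign.

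The highest mean FPKM in EtOH DMSO belonged to 5 members, *Trim28*, *Trim31*, *Trim27*, *Trim41* and *Trim8*. *Trim41* (ENSMUSG00000040365), a SPRY member, had 10.8 and 13.0 FPKM with EtOH DMSO, 11.4 and 10.6 with EtOH Nec-1, 24.7 and 21.0 with 4-OHT DMSO and 17.6 with 4-OHT Nec-1. The libraries labelled 4-OHT were all above the others, and the rise was 0.89 (limma adjusted p 0.00466). *Trim8* (ENSMUSG00000025034), whose product modulates cytokine signalling through SOCS1, had 10.1 and 11.5 FPKM with EtOH DMSO, 8.19 and 10.2 with EtOH Nec-1, 18.9 and 18.9 with 4-OHT DMSO and 16.4 with 4-OHT Nec-1. It too was above the EtOH range in all 3 libraries, and it rose by 0.76 (limma adjusted p 0.00716). *Trim27* (ENSMUSG00000021326), also known as the RET finger protein gene, had 20.6 and 21.8 FPKM with EtOH DMSO, 15.9 and 17.4 with EtOH Nec-1, 26.4 and 27.6 with 4-OHT DMSO and 24.8 with 4-OHT Nec-1. The groups did not overlap, and it rose by 0.33 (95% interval 0.12 to 0.55, limma adjusted p 0.0292). That call was lost in 9 of 16 alternatives, in which its adjusted p ranged up to 0.135. It was lost without either 4-OHT DMSO, either EtOH DMSO or either EtOH Nec-1 library, with a rise of 0.29 to 0.37 in those fits. With the libraries' medians made equal the rise was 0.18 (limma adjusted p 0.1305), and with upper quartile scaling 0.17 (0.1353). *Trim31* (ENSMUSG00000058063), whose product acts on the RIG-I adaptor MAVS, had 21.4 and 23.6 FPKM with EtOH DMSO, 23.8 and 22.3 with EtOH Nec-1, 24.8 and 29.5 with 4-OHT DMSO and 23.0 with 4-OHT Nec-1. Its 4-OHT Nec-1 value lay within the EtOH range, and its difference of 0.26 with 4-OHT (95% interval -0.02 to 0.54) did not pass, at a limma adjusted p of 0.119. That difference was 0.38 without 4-OHT DMSO replicate 1, a fit in which it crossed the threshold, and 0.14 without replicate 2. With the libraries' medians made equal it was 0.10 (limma adjusted p 0.482), and with upper quartile scaling 0.097 (0.494). *Trim40*, a gene of the gut epithelium, rose by 0.74 (limma adjusted p 0.00470), from 7.44 and 7.76 FPKM in EtOH DMSO to 12.4 and 14.4 in 4-OHT DMSO, and had 7.81 in 4-OHT Nec-1. *Trim14* and *Trim59* completed the 18, with rises of 0.77 and 0.38 and limma adjusted p of 0.0147 and 0.0448. *Trim14* lost its call in 1 of 16 alternatives, the one with no filter, at an adjusted p of 0.0537. *Trim59* kept its call in 5 of 16 alternatives (adjusted p 0.0344 to 0.213), and lost it without either EtOH DMSO library (0.0575 and 0.151), either EtOH Nec-1 library (0.0737 and 0.0737) or either 4-OHT DMSO library (0.138 and 0.0665).

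The members that fell with 4-OHT were 2 chromatin regulators and 1 NHL member. *Trim28* (ENSMUSG00000005566, chr7:13024152-13031032) had 30.4 and 30.7 FPKM with EtOH DMSO, 21.8 and 24.1 with EtOH Nec-1, 24.3 and 22.7 with 4-OHT DMSO and 21.1 with 4-OHT Nec-1. It was the most abundant member in EtOH DMSO, and only those 2 libraries stood above the rest, since EtOH Nec-1 overlapped with 4-OHT DMSO. *Trim28* fell with 4-OHT, by a log2 fold change of -0.37 (95% interval -0.58 to -0.15, limma adjusted p 0.0222). Its adjusted p was 0.0695 without 4-OHT DMSO replicate 2, 0.0694 without EtOH DMSO replicate 1 and 0.0716 without EtOH DMSO replicate 2, within 0.00730 to 0.0716 over 16 alternatives. *Trim24* (ENSMUSG00000029833), whose product reads histone marks and acts on nuclear receptors, had 6.26 and 6.86 FPKM with EtOH DMSO, 5.56 and 5.84 with EtOH Nec-1, 3.64 and 4.03 with 4-OHT DMSO and 3.79 with 4-OHT Nec-1. The libraries labelled 4-OHT were all below the 4 EtOH libraries, with a log2 fold change of -0.64 (95% interval -0.89 to -0.40, limma adjusted p 0.00560). *Trim33* (ENSMUSG00000033014), the third tested member of this class and a regulator of SMAD signalling, had 4.02 and 4.41 FPKM with EtOH DMSO, 2.93 and 3.91 with EtOH Nec-1, 4.47 and 3.18 with 4-OHT DMSO and 4.13 with 4-OHT Nec-1. Its groups overlapped, and its log2 fold change of -0.12 (95% interval -0.57 to 0.32, limma adjusted p 0.606) was 0.069 without 4-OHT DMSO replicate 2. Of 9 listed partners of TRIM28 in repression, *Setdb1* and *Chd3* were higher and *Cbx5* was lower, against 1 higher and 2 lower with the libraries' medians made equal, and 24.5% higher and 16.7% lower of all tested genes. *Trim2* (ENSMUSG00000027993), an NHL member known from neurons, had 7.83 and 9.26 FPKM with EtOH DMSO, 6.70 and 6.85 with EtOH Nec-1, 4.42 and 4.96 with 4-OHT DMSO and 5.69 with 4-OHT Nec-1. All 3 libraries labelled 4-OHT were below all 4 EtOH libraries, and its log2 fold change was -0.74 (95% interval -1.02 to -0.46, limma adjusted p 0.00540).

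For the 17 tested members that did not pass, the log2 fold change with 4-OHT ran from -0.55 to 0.62 with a median of 0.16, and mean FPKM in EtOH DMSO ran from 1.19 to 22.5. A p above the threshold does not show that a member stayed the same, and the 95% interval of the difference was inside -1 to 1 log2 units for 13 of the 17. In 8 of them the 4-OHT DMSO libraries overlapped with the EtOH DMSO libraries. *Trim3*, *Trim16*, *Trim65* and *Trim72* came closest, with limma adjusted p of 0.0704, 0.0642, 0.0579 and 0.0548. *Trim65* passed with the 4 DMSO libraries alone (0.0402) and without either EtOH Nec-1 library (0.0424 and 0.0434). *Trim16* crossed the threshold without 4-OHT DMSO replicate 2, and *Trim15* and *Trim31* without replicate 1, fits that leave that group with 1 library. *Trim72* passed as lower with the libraries' medians made equal, with upper quartile scaling and with no mean-variance trend. The 5 smallest differences belonged to *Trim56*, *Trim36*, *Trim37*, *Trim33* and *Trim39*. *Trim56* (ENSMUSG00000043279), counted among the antiviral members for its part in DNA sensing, had 3.72 and 4.76 FPKM with EtOH DMSO, 3.90 and 3.91 with EtOH Nec-1, 3.89 and 4.15 with 4-OHT DMSO and 3.07 with 4-OHT Nec-1. Its groups overlapped, with a log2 fold change of -0.06 (95% interval -0.37 to 0.26) that was 0.088 without EtOH DMSO replicate 2. *Trim36* (ENSMUSG00000033949), a microtubule-binding COS member, had 1.93 and 2.30 FPKM with EtOH DMSO, 2.49 and 2.54 with EtOH Nec-1, 1.82 and 1.96 with 4-OHT DMSO and 2.43 with 4-OHT Nec-1. The 95% interval of its difference was -0.39 to 0.17. *Trim37* (ENSMUSG00000018548), a MATH member, had 4.34 and 4.41 FPKM with EtOH DMSO, 3.19 and 3.29 with EtOH Nec-1, 4.14 and 3.73 with 4-OHT DMSO and 3.21 with 4-OHT Nec-1. Its 4-OHT DMSO values lay under its EtOH DMSO values by little, with an interval of -0.36 to 0.11. *Trim39* (ENSMUSG00000045409), a SPRY member, had 2.35 and 2.54 FPKM with EtOH DMSO, 2.05 and 2.66 with EtOH Nec-1, 3.02 and 2.52 with 4-OHT DMSO and 1.86 with 4-OHT Nec-1. Its groups overlapped as well, and its difference of 0.13 (95% interval -0.22 to 0.47) was -0.030 with the libraries' medians made equal.

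The 30 members that were not tested ran from silent ones to some just under the filter. Listed at 0 in all 7 libraries were 10 of them, *Trim30c*, *Trim42*, *Trim43b*, *Trim52*, *Trim54*, *Trim55*, *Trim58*, *Trim60*, *Trim63* and *Trim75*, among them *Trim54*, *Trim55* and *Trim63*, which are known from muscle. The other 20 had some signal, 9 of them in every library, and 11 reached 0.1 FPKM and 7 reached 0.5 FPKM in at least 1 library. *Trim7* had 0.737 to 0.994 FPKM in the 7 libraries, and its mean of 0.859 was above the 0.614 of *Trim5*, which was tested. *Trim7* overlaps *Gm12184*, which had between 7.83 and 17.3 FPKM, so its level may hold reads of that gene. *Trim45* was the single one to reach 1 FPKM, with 1.47 in 4-OHT DMSO replicate 2. Together the 30 held between 1.59% and 1.80% of the family's FPKM in each library. With no expression filter, *Trim29*, *Trim47* and *Trim30b* were higher with 4-OHT, at limma adjusted p of 0.0145, 0.0237 and 0.0258. These are 3 of the 20 with some signal, and the share among all genes under the filter is not given here. Of all 58 members in that fit 19 were higher, beside 9.68% of all genes in it. All 3 were under 1 FPKM in every library, and *Trim47* reached 0.793 and *Trim29* 0.846 at most. *Trim46* overlaps *Krtcap2*, which had between 36.5 and 55.3 FPKM, so its own highest value of 0.649 may hold reads of that gene.

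Nec-1 was compared with DMSO in the absence of 4-OHT. No member of the 38 passed at an adjusted p under 0.05 in limma, beside 0.22% of all tested genes, and 7 of 38 had an unadjusted p under 0.05, beside 13.3% of all. The members' log2 fold changes ran from -0.40 for *Trim28* to 0.69 for *Trim25*, with a median of -0.08 against -0.09 over all tested genes. *Trim13* had the smallest limma adjusted p at 0.198, with a log2 fold change of 0.66 and both EtOH Nec-1 libraries above both EtOH DMSO libraries. *Trim28* differed by -0.40 with an adjusted p of 0.208 from limma, and both EtOH Nec-1 libraries were below both EtOH DMSO libraries. For *Trim25* the adjusted p was 0.526 from limma, and the EtOH Nec-1 libraries differed widely, at 5.63 and 14.8 FPKM. The markers *Trim30a* and *Trim21* had log2 fold changes of 0.07 and -0.20, with limma adjusted p of 0.934 and 0.475. Leaving out any 1 library also gave no member past the threshold.

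With 4-OHT, Nec-1 was represented by 1 library, so no test was made, and a member was counted when its mean over the compared libraries was at least 1 FPKM and it lay at least 1 log2 unit of log2(FPKM + 1) beyond each library of the other group. By this rule 4 of 38 members were below each 4-OHT DMSO library, beside 1.21% of all genes at that level. They were *Trim30a*, *Trim30d*, *Trim34b* and *Trim21*, of which the first 3 passed the filter only through libraries labelled 4-OHT. Among genes with at least 1 FPKM in 2 or more EtOH libraries, 1 of 31 members, *Trim21*, was below by this rule, beside 0.832% of all such genes. *Trim30a* lay -3.02 and -3.73 log2 units from the 2 4-OHT DMSO libraries, and *Trim30d* -1.75 and -2.16. For *Trim34b* the differences were -1.49 and -1.13, and for *Trim21* they were -1.16 and -1.25. *Trim12a* missed the rule at -0.93 and -1.21, and so did *Trim34a* at -0.69 and -1.38. Without 4-OHT DMSO replicate 1, 8 members met it, among them *Trim6*, *Trim12a*, *Trim12c* and *Trim34a*, while the count over all genes went from 146 to 543, which is 4.54%. *Trim25* was below both 4-OHT DMSO libraries by less than the rule asks, at -0.72 and -0.84, and *Trim35* had a mean difference of -0.36. No member lay above each 4-OHT DMSO library by the same rule, beside 0.764% of all genes, and the tested members above both by less were *Trim26*, at 0.52 and 0.53, *Trim2*, at 0.30 and 0.17, *Trim36*, at 0.28 and 0.21, and *Trim13*, at 0.18 and 0.23. Over the members at that level the median difference was -0.23, against -0.09 over all genes. These differences share the 4-OHT DMSO libraries with the comparison in which the members rose. By any amount, 17 of the 18 higher members were below each 4-OHT DMSO library, and *Trim13* was not. So were 73.9% of all higher genes and 49.3% of all tested genes.

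Set against EtOH Nec-1, which shares no library with the comparison of 4-OHT DMSO and EtOH DMSO, the 4-OHT Nec-1 library was higher by that rule in 3 of 32 members, beside 4.24% of all genes at that level. They were *Trim25*, at 2.32 and 1.07 log2 units above the 2 EtOH Nec-1 libraries, *Trim13*, at 1.25 and 1.13, and *Trim35*, at 1.24 and 1.08. With the libraries' medians made equal *Trim13* alone met the rule. On this scale *Trim30a* lay 0.29 above the EtOH Nec-1 mean, *Trim21* 0.27 and *Trim34b* 0.12. *Trim6*, *Trim30d* and *Trim34a* lay between these and the members that met the rule, at 0.80, 0.78 and 0.74. *Trim30a*, *Trim34b*, *Trim6* and *Trim30d* were under the level of the rule, and the added 1 holds down differences of genes this low. *Trim30a* had 0.325 FPKM with 4-OHT Nec-1 against 0.0430 and 0.127 with EtOH Nec-1. By any amount, 15 of the 18 members higher with 4-OHT in DMSO were above each EtOH Nec-1 library, as were 95.1% of all higher genes, and *Trim5*, *Trim12c* and *Trim34b* were not. All 3 lower members were below each EtOH Nec-1 library, as were 93.4% of all lower genes. Whether the difference with 4-OHT depends on Nec-1 was not tested, since 4-OHT Nec-1 has no replicate.

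**Figure D5:**
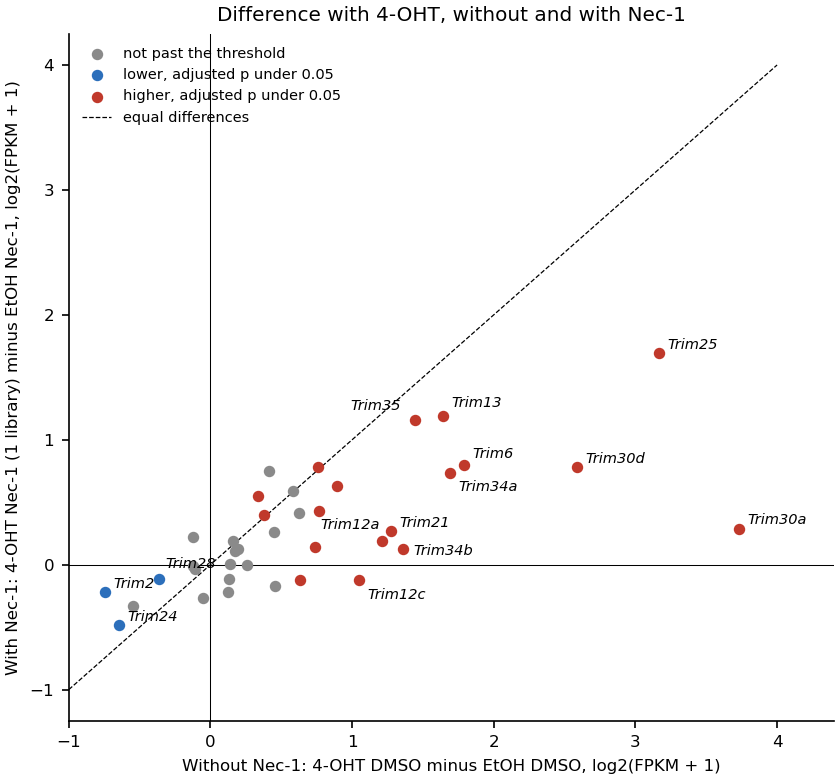
Log2 difference of each tested TRIM member with 4-OHT in DMSO (horizontal) and in Nec-1 (vertical), in units of log2(FPKM + 1), with 1 point per member, coloured by its call in DMSO, and a dashed line of equal differences. *Trim30a* is at 3.73 and 0.29, far under the line, and *Trim13* is at 1.64 and 1.19.

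Seen as a group, 9 of 11 tested members on a list of interferon-linked TRIM genes were higher with 4-OHT, under each scaling, and *Trim26* and *Trim56* were the 2 that did not pass. Of these 11, *Trim12a*, *Trim30a*, *Trim30d*, *Trim34a* and *Trim34b* passed the filter only through libraries labelled 4-OHT, and 4 of the other 6 were higher, beside 22.8% of all genes that reached 1 FPKM in at least 2 EtOH libraries. Of 27 tested members outside the list, 9 were higher and 3 lower, and without the 2 that passed the filter in that way, *Trim5* and *Trim6*, 7 of 25 were higher and 3 lower, beside 22.8% and 17.8% of all genes that reached that level. All 49 tested genes of a list of 54 interferon-stimulated genes, which holds no TRIM symbol, were higher with a median of 2.65, and 47 of 49 were with the libraries' medians made equal. Of these 49, 19 passed the filter only through libraries labelled 4-OHT, and the other 30 were all higher as well. By the fold rule, 39 of 50 of these genes were below each 4-OHT DMSO library in 4-OHT Nec-1, as were 4 of 11 interferon-linked TRIM members and 1.21% of all genes. With at least 1 FPKM asked for in 2 or more EtOH libraries, these counts were 21 of 30 and 1 of 6, beside 0.832% of all genes. This comparison shares the 4-OHT DMSO libraries with the one in which these genes were higher. Of all higher genes, 73.9% were below each of those libraries by any amount. Of 12 interferon ligands and receptors, *Ifnb1*, *Ifna4*, *Ifnl2* and *Ifnl3* were listed at 0 in all libraries, 6 were tested, 3 were higher, 2 under the other scalings, and *Ifngr2* was lower, beside 24.5% higher and 16.7% lower of all tested genes. Of 4 TRIM genes that go by other symbols, *Mid1* and *Pml* were higher among the 3 tested, 1 of 3 under the other scalings, and *Pml* rose by 1.07. With the libraries' medians made equal, 17.4% of all tested genes were higher and 25.1% lower.

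Markers of cell types were summed to check the label. The 15 epithelial markers, led by *Krt8*, were all tested and summed to 4191 and 3952 FPKM with EtOH DMSO, 3915 and 3846 with EtOH Nec-1, 5226 and 5717 with 4-OHT DMSO and 5112 with 4-OHT Nec-1. Of them 9 were higher and 3 lower with 4-OHT, beside 24.5% and 16.7% of all tested genes, against 6 and 5 with the libraries' medians made equal. The largest rises were those of *Muc2*, *Chga* and *Lyz1*, at log2 fold changes of 1.18, 1.18 and 0.98. The 3 lower markers were *Alpi*, *Olfm4* and *Lgr5*, at -1.53, -0.87 and -0.65. The part of such shifts in the TRIM differences was not tested. The 15 immune markers summed to 2.14 and 1.38 FPKM with EtOH DMSO, 2.00 and 2.83 with EtOH Nec-1, 0.854 and 1.06 with 4-OHT DMSO and 1.94 with 4-OHT Nec-1. *Itgam* was the most abundant of these and the single one tested, *Ptprc* was at or under 0.0497, and *Cd4*, *Itgax*, *Nkg7* and *S100a8* were at 0. The other 14 without *Itgam* summed to 0.177 and 0.188 FPKM with EtOH DMSO, 0.147 and 0.385 with EtOH Nec-1, 0.539 and 0.141 with 4-OHT DMSO and 0.631 with 4-OHT Nec-1, and these groups overlapped. The 10 stromal and endothelial markers, none of them tested and *S100b* the most abundant, summed to 0.569 and 0.610 FPKM with EtOH DMSO, 0.417 and 0.555 with EtOH Nec-1, 0.950 and 1.19 with 4-OHT DMSO and 1.19 with 4-OHT Nec-1. That sum was higher in each library labelled 4-OHT than in each EtOH library. Without *S100b* the other 9 summed to between 0.0948 and 0.172 FPKM in the EtOH libraries and between 0.161 and 0.331 in those labelled 4-OHT, so the groups overlapped. The part of stromal, endothelial or immune cells in the TRIM differences was not tested.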

How the data were processed

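RNA-seq of 7 libraries was used, and 2 ChIP samples were not analysed here. The deposited values are FPKM per gene, which the authors made with HISAT2 2.1.0, StringTie 1.3.3b and build mm10, per the submitters' processing notes. Of the per-sample columns, 2 repeated another file and were not used again. From FPKM, log2(FPKM + 1) was computed, and a gene was kept if 2 libraries or more reached 1 FPKM. limma 3.58.1 (R 4.3.3) was fitted with a mean-variance trend and a mean for each group (3 residual degrees of freedom), and p-values were Benjamini-Hochberg adjusted over all 12702 tested genes, with a threshold of 0.05. The code was tested on simulated data. Members and gene lists were chosen with earlier results of these data known. Named members were the markers *Trim30a*, *Trim21* and *Trim25*, the 10 largest rises and 5 largest falls that passed and held in every pairing of libraries, the 5 highest in EtOH DMSO, *Trim24*, *Trim28* and *Trim33*, members past a rule with Nec-1 and the 5 smallest differences. Any other gene named was chosen after its values were seen, unless it is on a list. The lists were C-terminal classes, interferon-linked TRIM genes, TRIM genes under other symbols, interferon-stimulated genes, interferon ligands and receptors, the RIG-I pathway, TRIM28 partners and cell type markers. The alternatives were the scaling, the pseudocount, the filter, the trend, the libraries fitted, fold thresholds, a replicate block and leaving out each library. Tables and figures used Python 3.11.15, numpy 2.4.6, pandas 2.3.3 and matplotlib 3.10.9.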

Additional observations from a re-analysis of the deposited data

Results flagged for a closer look

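In 3 tested members, Nec-1 went with opposite differences in the absence and in the presence of 4-OHT, with no overlap between the libraries compared. The same held for 9.49% of all tested genes, against these 3 of 38 members (7.89%), so it is not particular to the family. For *Trim2*, EtOH Nec-1 minus EtOH DMSO was -0.29 on log2(FPKM + 1), with both EtOH Nec-1 libraries (6.70 and 6.85 FPKM) below both EtOH DMSO libraries (7.83 and 9.26 FPKM). Its value of 4-OHT Nec-1 minus 4-OHT DMSO was 0.24, with the single 4-OHT Nec-1 library (5.69 FPKM) above both 4-OHT DMSO libraries (4.42 and 4.96 FPKM). *Trim12c* went the other way, with 0.29 in the absence of 4-OHT (3.99 and 4.39 FPKM against 3.41 and 3.07) and -0.88 in its presence (3.76 FPKM against 6.94 and 8.68). *Trim14* had 0.27 in the absence of 4-OHT (2.92 and 2.91 FPKM against 1.79 and 2.77) and -0.060 in its presence (4.28 FPKM against 4.59 and 4.44). Whether these pairs of values differ was not tested, since 4-OHT Nec-1 has 1 library, and the cause was not tested.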

How the results depend on the processing

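The count of 18 members higher with 4-OHT became 11 of 28 with 1 FPKM required in every library, where fewer genes could be tested. In that setting 3 members were lower, and 25.6% of all tested genes were higher and 17.54% lower. The higher count was also 11 with a fold threshold of 1 log2 unit beside either the adjusted or the unadjusted p. The count of 3 lower members became 0 with either fold threshold. By construction a fold threshold removes smaller changes. Without 1 library, 13 to 18 members were higher and 2 to 3 lower, and when that left a group with 1 library it was assumed to vary like the others. A replicate block gave 17 higher and 3 lower, beside 21.95% and 15.03% of all tested genes, with *Trim5* the call lost. The replicate numbers showed no pairing, however, with correlations of deviations between -0.04 and 0.01. Members changed with Nec-1 in the absence of 4-OHT numbered 0 in every alternative, and so did members above each 4-OHT DMSO library in 4-OHT Nec-1.

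The count of 4 members below each 4-OHT DMSO library became 2 when a mean of 5 FPKM was required, where only 20 members qualified. The count over all genes went from 146 to 97 in that setting. It was 8 members without 4-OHT DMSO replicate 1, beside 4.54% of all genes, and 4 without replicate 2, beside 2.04%. The count of 3 members above each EtOH Nec-1 library, beside 4.24% of all genes, became 1 with the libraries' medians made equal. It was 3 to 4 without 1 library. The shares over all genes in these other settings are not given here, and the cause was not tested. Fold changes with 4-OHT changed sign for *Trim33* (-0.32 to 0.069 over the fits without 1 library), for *Trim56* (-0.20 to 0.088 over the same fits), for *Trim23* (-0.11 to 0.38 over the same fits, -0.018 with the medians made equal), for *Trim39* (-0.030 with the medians made equal) and for *Trim44* (-0.027 with the medians made equal, -0.011 with upper quartile scaling), and the cause was not tested. None of these 5 members passed the threshold in any fit. Depth is unknown, so the precision of values under 1 FPKM cannot be given.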
